A study of Homo sapiens with 6 samples.

Results

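The genes described here are 40 genes of the G2/M transition and of mitosis, chosen by name from the gene symbols of a raw count table of RNA sequencing, where they make up 40 of 57445 listed genes. They cover G2/M cyclins and their kinase, the spindle checkpoint, the mitotic kinases, the triggers of anaphase, the kinetochore, the mitotic kinesins, the spindle and the machinery of cytokinesis. The study compared H358 cells, an established lung cancer cell line, with 2 clones of it that carry a variant of the metastasis suppressor BRMS1. The 6 libraries form 3 groups of 2: parental cells listed as BRMS1 WT (called WT here), the isogenic clone C1 listed as BRMS1v2 A273V/A273V, and the isogenic clone C2 with the same listed genotype. All 6 libraries come from cells grown in RPMI with 10% FBS, and no drug or other agent is listed for any group. Each variant group is a single clone, and how it was derived is not stated in the labels. The labels number the libraries of each group 1 and 2 without saying whether these are separate cultures or what the number marks, so that p-values here measure only the spread between these libraries, which may be technical.

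These genes are made in a wave as a dividing cell passes from S phase through G2 into mitosis. Cyclin B with CDK1 drives entry into mitosis, the spindle checkpoint holds anaphase back until every kinetochore is attached, and the anaphase-promoting complex (APC/C) then destroys cyclin B and securin so that the chromosomes can part and the cell can divide. In resting cells and in G1 many of the genes are held down by the DREAM complex, and in G2 the MuvB core of that complex works with B-MYB and FOXM1 to turn them on. Many of their promoters hold a CCAAT box, bound by NF-Y, and a CHR (cell cycle genes homology region), through which MuvB complexes bind. The level of these RNAs in a culture is widely used as a measure of how many cells are dividing.

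The promoters of the members were read from RefSeq (build GRCh38.p14), 250 bases before to 50 bases after the start of each gene, and were found for 34 of the 40 members. Those not matched were FOXM1, TTK, AURKA, BIRC5, TPX2 and UBE2C. The letters searched, on both strands, were TTTGAA and TTCGAA for the CHR and CCAAT for the CCAAT box. In MKI67 a CHR match and a CCAAT match share bases. The 6 stretches printed here are the 130 bases before the start, read 5′ to 3′ along the strand of the gene, with matches in capitals. They come from members of different roles. ECT2 is the member with the smallest difference between replicates 1 and 2 when the 3 groups are fitted together. Each stretch holds both a CHR match and a CCAAT match, which is not so for every member. CCNA2, CCNB1 and CDK1, for example, have no CHR match in the same 130 bases. CDK1 has a CHR match farther upstream, at -161, while CCNA2 and CCNB1 have none in the promoter searched. Other spellings of the CHR were not searched. ATTGG and TTCAAA are the same letters read on the other strand.

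MKI67: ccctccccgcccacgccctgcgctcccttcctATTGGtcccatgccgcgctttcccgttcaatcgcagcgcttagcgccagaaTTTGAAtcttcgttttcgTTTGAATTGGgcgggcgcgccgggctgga
PLK1: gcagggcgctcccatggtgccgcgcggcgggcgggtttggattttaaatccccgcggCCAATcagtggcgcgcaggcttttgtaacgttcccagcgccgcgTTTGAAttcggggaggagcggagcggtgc
CCNB2: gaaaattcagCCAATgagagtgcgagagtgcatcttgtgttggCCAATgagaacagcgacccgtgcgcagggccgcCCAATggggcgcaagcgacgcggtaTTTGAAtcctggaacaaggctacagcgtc
KIF11: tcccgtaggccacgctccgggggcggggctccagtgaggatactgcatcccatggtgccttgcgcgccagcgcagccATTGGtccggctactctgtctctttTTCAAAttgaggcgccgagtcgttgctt
HMMR: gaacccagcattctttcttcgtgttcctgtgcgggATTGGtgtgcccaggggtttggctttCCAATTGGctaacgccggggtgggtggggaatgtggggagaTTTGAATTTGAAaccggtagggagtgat
ECT2: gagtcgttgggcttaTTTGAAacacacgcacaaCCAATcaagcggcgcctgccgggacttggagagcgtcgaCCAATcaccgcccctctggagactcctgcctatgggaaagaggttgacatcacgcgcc

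In GRCh38.p14 these stretches are chr10:128126424-128126553 on the minus strand for MKI67, chr16:23678759-23678888 on the plus strand for PLK1, chr15:59105016-59105145 on the plus strand for CCNB2, chr10:92593000-92593129 on the plus strand for KIF11, chr5:163460502-163460631 on the plus strand for HMMR and chr3:172750596-172750725 on the plus strand for ECT2. In MKI67, PLK1, CCNB2, KIF11 and HMMR a CHR match begins at -28 or -29, counted in bases from the start. No other matched member has a CHR match beginning at either position, so the shared position is a property of this choice of stretches. In ECT2 the match in the printed stretch begins at -115. A CHR match was present in 26 of the 34 member promoters (76.5%), against 16.4% of all 35116 promoters in the table and 11.5% of the 11917 promoters of genes tested here. A CCAAT match was also present in 26 of 34 (76.5%), against 34.6% of all promoters and 36.3% of those of tested genes. Both kinds stood in 61.8% of the member promoters, 6.38% of all promoters and 4.99% of those of tested genes. Of the 35 CHR matches in the members, 25 began within 50 bases of the start on either side, and the median first base lay at -28. The 55 CCAAT matches had their median at -73, and 40 of them began between -150 and -30. A match is a run of letters and not a measured site of binding.

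**Figure D1:**
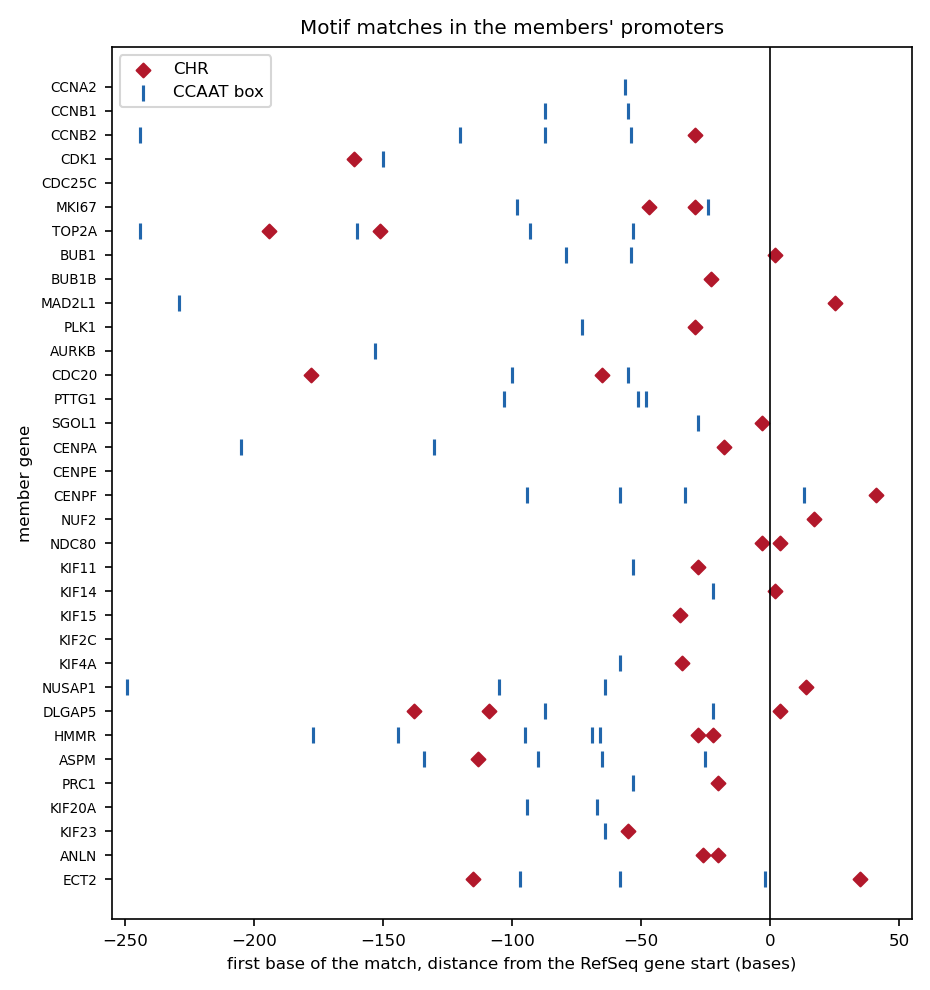
Matches of the CHR letters and the CCAAT letters in the RefSeq promoters of the 34 matched members, one line per gene, with the distance of the first base of each match from the gene start on the horizontal axis (bases). Of the 35 CHR matches (median -28), 25 begin within 50 bases of the start on either side, some of them after it. The median of the 55 CCAAT matches lies farther upstream (-73).

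Each library held between 27527867 and 37146270 gene counts, and all 40 members passed the filter on low counts, as did 17129 genes in all. The epithelial markers listed for the check of the cell line (8 of 8 tested) summed to 5630 to 7950 CPM (counts scaled to a common library size) in each library. Fibroblast markers (3 of 7 tested) summed to 39.5 to 49.8 CPM in the replicate 1 libraries and 62.1 to 71.0 in the replicate 2 libraries. Blood and endothelial markers (4 of 7 tested) summed to 4.70 to 5.28 and 6.31 to 8.08 CPM. The mitochondrial share of gene counts was lower in replicate 2 than in replicate 1 of every group, at 5.01% against 7.38% in WT, 6.26% against 8% in C1 and 6.83% against 8.67% in C2. The part of these shifts in the differences between replicates reported below was not tested.

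The mitotic genes separated the libraries by replicate number and set 1 library, C1 replicate 2, far below the rest. Summed over the 40 members, WT held 5725 CPM in replicate 1 and 2694 in replicate 2, a 2.13-fold difference. C2 held 7088 and 2204 CPM, a 3.22-fold difference. C1 held 6353 and 558 CPM, an 11.4-fold difference, so that the members took 0.605% of the gene counts in C1 replicate 1 and 0.056% in C1 replicate 2. In these bulk libraries fewer cells in G2 and mitosis and less of each RNA per cell cannot be told apart.

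All 40 members had their lowest value in C1 replicate 2. The highest value lay in C2 replicate 1 for 33 members, in C1 replicate 1 for 4 and in WT replicate 1 for 3. For each of the 40, the 3 replicate 2 libraries lay below the 3 replicate 1 libraries without overlap, which held for 18.5% of the tested genes. For 24 members the order from low to high was the same: C1 replicate 2, C2 replicate 2, WT replicate 2, WT replicate 1, C1 replicate 1, C2 replicate 1. On the log2 scale of CPM with a prior count of 2, the median difference of replicate 2 from replicate 1 was -1.08 in WT (range -1.67 to -0.62), -1.80 in C2 (-2.19 to -1.09) and -3.75 in C1 (-4.73 to -2.00), against medians of 0.01, 0.00 and 0.00 over all tested genes. In all 40 members the difference was smallest in WT, larger in C2 and largest in C1.

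**Figure D2:**
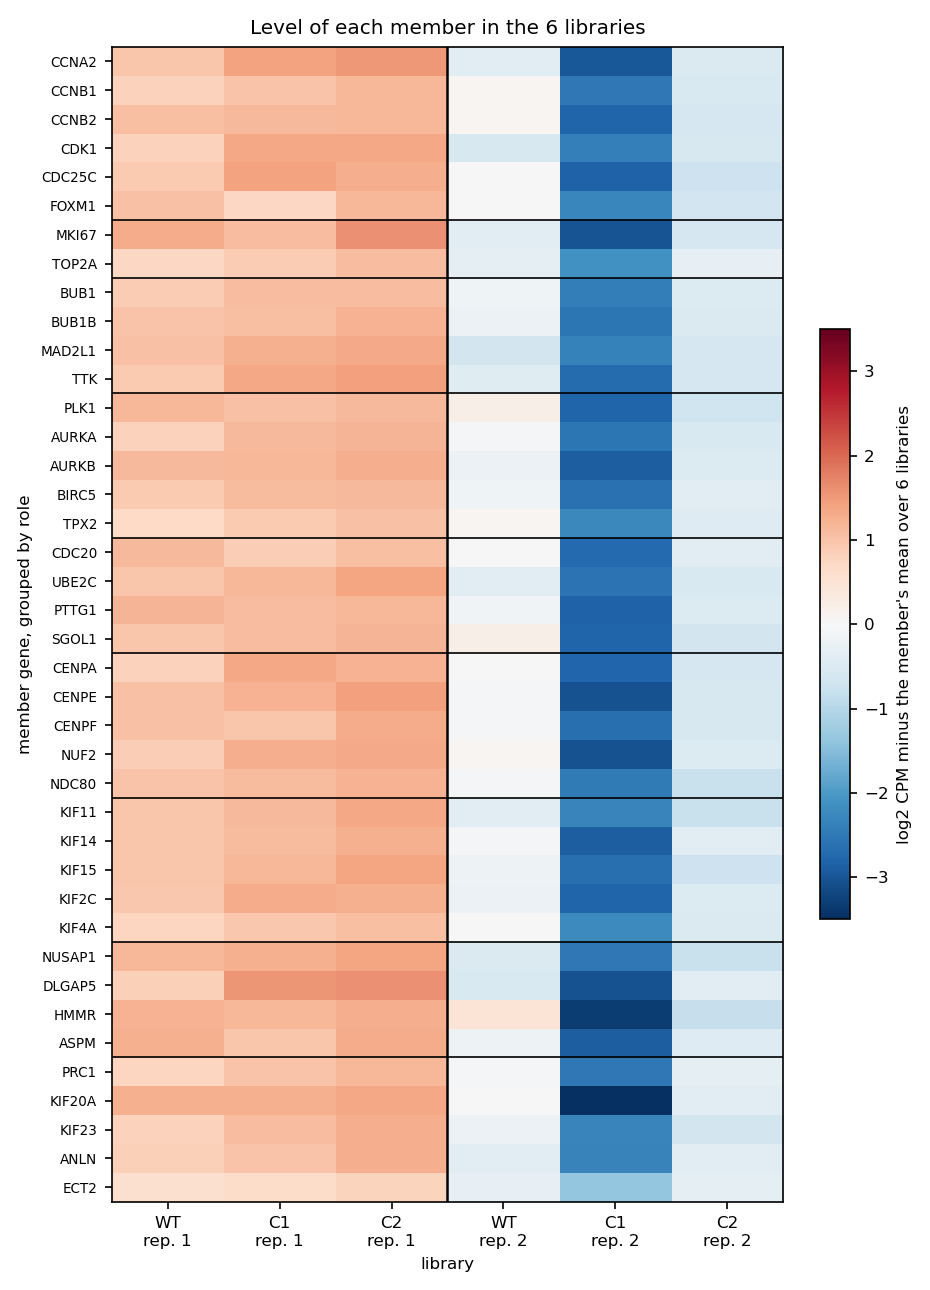
Level of the 40 members (rows, grouped by role) in the 6 libraries (columns), as log2 CPM minus the mean of the member over the 6 libraries, from blue (low) to red (high). The 3 replicate 1 columns are red in every row, and the C1 replicate 2 column is the darkest blue in all 40.

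Among the cyclins and the regulators of CDK1, the 6 members were 2.00-fold lower at the median in replicate 2 of WT, 3.67-fold in C2 and 14.3-fold in C1. CCNA2, the cyclin of S phase and G2, had the largest replicate difference of this group, with 110 and 42.2 CPM in replicates 1 and 2 of WT, 150 and 7.05 CPM in C1, and 160 and 39.3 CPM in C2. CCNB1, the B-type cyclin that drives entry into mitosis, stood at 216 and 128 CPM in WT, 243 and 21.6 CPM in C1, and 275 and 85.1 CPM in C2. Its kinase partner CDK1 read 101 and 39.4 CPM in WT, 148 and 11.1 CPM in C1, and 149 and 39.2 CPM in C2. For each of these 3 genes the C1 libraries held the lowest value and, with C2, values above both WT libraries, so the WT pair lay inside the range of C1. FOXM1, a transcription factor of the G2/M wave, had 103 and 51.5 CPM in WT, 84.0 and 10.3 CPM in C1, and 114 and 32.1 CPM in C2. Unlike CCNA2, CCNB1 and CDK1 it was below WT in both C1 libraries. CCNB2, the other B-type cyclin, and CDC25C, a phosphatase that activates CDK1, differed between replicates of C1 by -3.94 and -4.24 (log2).

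MKI67, which codes for the Ki-67 protein that coats mitotic chromosomes and is the usual marker of dividing cells, gave 210 and 66.5 CPM in WT, 179 and 10.6 CPM in C1, and 258 and 56.8 CPM in C2. Its WT difference was 3.15-fold, that in C2 4.55-fold and that in C1 16.9-fold. TOP2A, the topoisomerase that untangles sister chromatids, gave 746 and 365 CPM in WT, 841 and 104 CPM in C1, and 950 and 370 CPM in C2. The 3 replicate 1 libraries were close to each other, and WT and C2 replicate 2 nearly equal, while C1 replicate 2 stood apart.

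The spindle checkpoint genes differed by 2.40-fold at the median in WT, 3.48-fold in C2 and 12-fold in C1. BUB1, a kinase of the checkpoint at the kinetochore, had 150 and 72.8 CPM in WT, 172 and 15.0 CPM in C1, and 171 and 58.3 CPM in C2. BUB1B codes for BUBR1, part of the inhibitor of the APC/C, and read 142 and 61.7 CPM in WT, 146 and 12.2 CPM in C1, and 164 and 50.0 CPM in C2. TTK, the kinase MPS1 that starts checkpoint signalling, read 76.3 and 30.4 CPM in WT, 103 and 6.28 CPM in C1, and 111 and 27.0 CPM in C2. Replicate 1 of the 3 groups lay close together in BUB1 and BUB1B, and both clones lay above WT in replicate 1 for TTK. MAD2L1, which codes for the MAD2 subunit of that inhibitor, was the checkpoint member with the largest WT difference (-1.66, log2).

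For the mitotic kinases and their partners the median differences were 1.96-fold in WT, 3.32-fold in C2 and 13.2-fold in C1. PLK1, which acts on centrosomes, kinetochores and cytokinesis, had 102 and 52.3 CPM in WT, 92.5 and 6.48 CPM in C1, and 100 and 28.3 CPM in C2. AURKB, the kinase of the chromosomal passenger complex, had 86.0 and 34.1 CPM in WT, 87.5 and 5.28 CPM in C1, and 94.5 and 28.0 CPM in C2. TPX2, which activates Aurora A on the spindle, had 311 and 203 CPM in WT, 360 and 40.3 CPM in C1, and 391 and 142 CPM in C2. The WT difference in TPX2, 1.53-fold, was the smallest of the 40, while its C1 difference was 8.91-fold. PLK1 was one of 3 members that were lower than WT in both C2 libraries, by little in replicate 1 (-0.033, log2). AURKA, the centrosomal Aurora kinase, and BIRC5, which codes for survivin of the passenger complex, differed in C1 by -3.65 and -3.72 (log2).

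The genes of anaphase entry differed by 2.34-fold in WT, 3.34-fold in C2 and 14.1-fold in C1. CDC20, the activator of the APC/C in mitosis, read 162 and 74.3 CPM in WT, 133 and 11.2 CPM in C1, and 153 and 57.1 CPM in C2. UBE2C, its ubiquitin-conjugating enzyme, read 172 and 65.9 CPM in WT, 196 and 14.6 CPM in C1, and 229 and 60.6 CPM in C2. SGOL1, shugoshin, which guards cohesion at the centromere, read 14.2 and 8.21 CPM in WT, 15.4 and 0.969 CPM in C1, and 16.5 and 4.58 CPM in C2. The SGOL1 value in C1 replicate 2 rests on 29 counts. CDC20 and PTTG1, which codes for securin, were lower than WT in both libraries of both clones, as PLK1 was. In C2 replicate 1 the differences of CDC20 and PTTG1 were small (-0.079 and -0.038, log2).

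At the centromere and kinetochore the 5 members differed by 2.07-fold in WT, 3.63-fold in C2 and 17.5-fold in C1. CENPA, the histone H3 variant that marks centromeres, had 34.1 and 19.2 CPM in WT, 50.1 and 2.81 CPM in C1, and 45.8 and 13.1 CPM in C2. CENPE, the kinetochore motor, had 105 and 49.5 CPM in WT, 119 and 6.18 CPM in C1, and 139 and 34.9 CPM in C2. NDC80, the microtubule-binding subunit of the outer kinetochore, had 47.5 and 22.9 CPM in WT, 52.2 and 4.28 CPM in C1, and 55.8 and 13.9 CPM in C2. In each of the 3, both clones lay above WT in replicate 1 and below it in replicate 2. NUF2, the partner of NDC80, had the largest C1 difference of this role (-4.33, log2), and CENPF, a large kinetochore protein, one of -3.61.

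The mitotic kinesins differed by 2.20-fold in WT, 3.29-fold in C2 and 13.8-fold in C1. KIF11, the motor Eg5 that pushes spindle poles apart, read 74.5 and 28.6 CPM in WT, 83.0 and 7.58 CPM in C1, and 96.0 and 22 CPM in C2. KIF4A, a motor on chromosome arms and in the central spindle, read 90.5 and 53.3 CPM in WT, 103 and 11.5 CPM in C1, and 110 and 37.5 CPM in C2. In both genes C1 replicate 2 was well below C2 replicate 2, and the WT pair lay inside the range of each clone. The C1 differences of KIF14, KIF15 and KIF2C, motors of cytokinesis, of spindle bipolarity and of microtubule ends, were -4.00, -3.78 and -4.12 (log2).

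Genes of spindle assembly differed by 2.63-fold in WT, 4.09-fold in C2 and 18.1-fold in C1. DLGAP5, which codes for HURP, a protein of kinetochore fibres, read 123 and 47.5 CPM in WT, 202 and 8.38 CPM in C1, and 210 and 52.9 CPM in C2. HMMR, which organises spindle poles, read 79.8 and 47.6 CPM in WT, 76.9 and 3.34 CPM in C1, and 81.8 and 19.4 CPM in C2. ASPM, a protein of spindle poles, read 144 and 53.7 CPM in WT, 120 and 8.18 CPM in C1, and 149 and 44.2 CPM in C2. HMMR was nearly equal in the 3 replicate 1 libraries and had the largest difference of the 40 between C2 and WT in replicate 2 (-1.29, log2). DLGAP5 was instead above WT in both C2 libraries. NUSAP1, which binds spindle microtubules, had the largest WT difference of all members, 3.17-fold.

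The genes of the central spindle and cytokinesis differed by 2.05-fold in WT, 3.11-fold in C2 and 10.6-fold in C1, and they held both ends of the range over the members. KIF20A, the kinesin MKLP2 that moves the passenger complex to the central spindle, had 132 and 55.6 CPM in WT, 132 and 4.91 CPM in C1, and 142 and 42.1 CPM in C2. ECT2, the exchange factor that activates RhoA at the cleavage furrow, had 166 and 91.8 CPM in WT, 176 and 43.9 CPM in C1, and 193 and 90.9 CPM in C2. The C1 difference was 26.6-fold in KIF20A, the largest of the 40, and 4-fold in ECT2, the smallest. PRC1, the bundler of central spindle microtubules, KIF23, the kinesin of centralspindlin, and ANLN, the scaffold anillin of the furrow, had C1 differences of -3.5, -3.4 and -3.33 (log2).

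**Figure D3:**
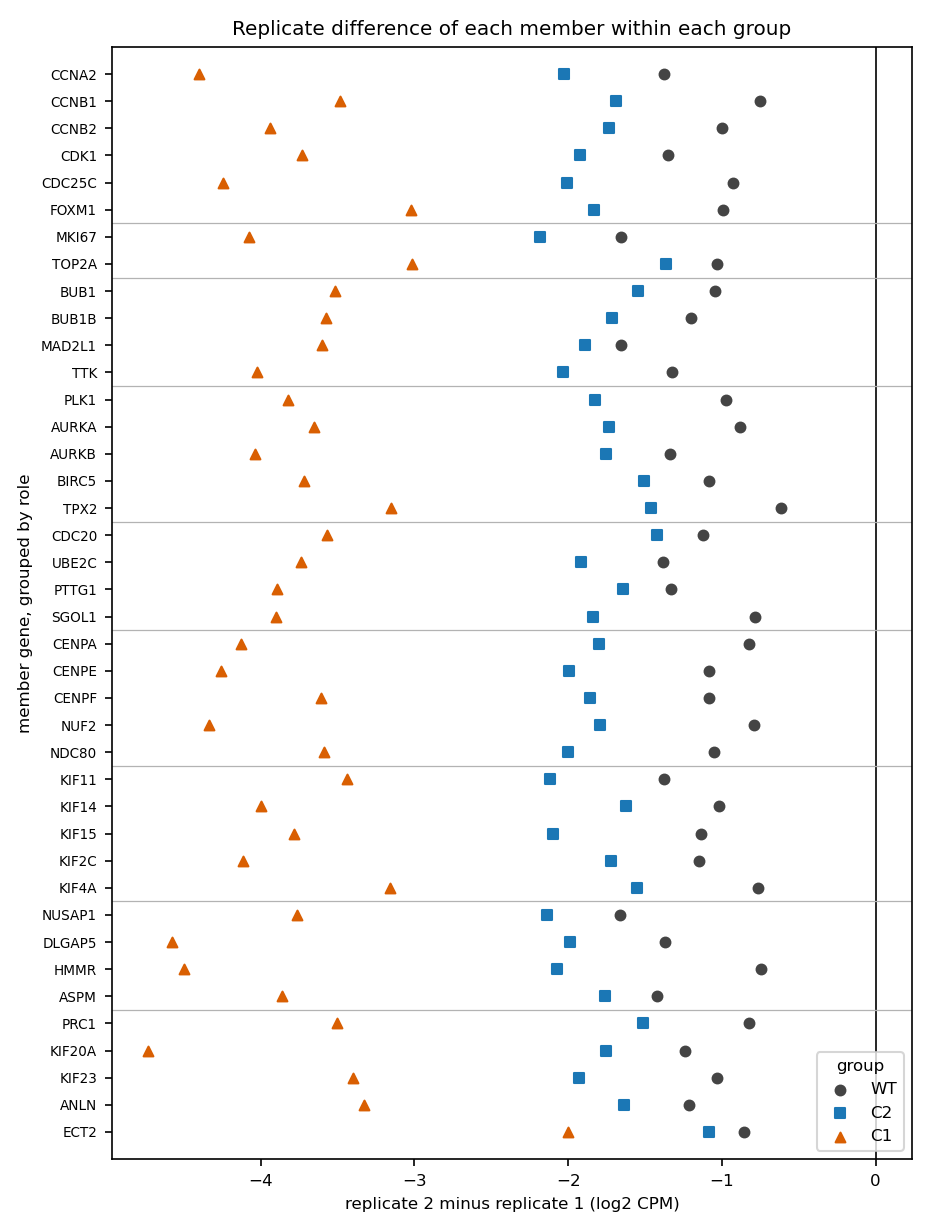
Replicate 2 minus replicate 1 (log2 CPM) for each of the 40 members within WT, C1 and C2, with members grouped by role and 1 point per group. The WT points lie between -1.67 and -0.62, the C2 points between -2.19 and -1.09 and the C1 points between -4.73 and -2.00, with C1 the leftmost point on every line.

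The members varied together. Across the 6 libraries, 98.9% of the variance of the 40 centred log2 levels lay along 1 axis, and the lowest correlation of any pair of members was 0.937 (median 0.992). These correlations rest on 6 libraries that share their depth and their grouping, and are given as a description. BUB1, BUB1B, AURKA, AURKB, BIRC5 and KIF15 followed the median of the other members most closely (r = 0.999), and HMMR least (0.978). Per kilobase of exon in GENCODE 29, the mean level over the 6 libraries was highest for UBE2C (95.6 CPM per kb), TOP2A (87.4), TPX2 (66.9) and CCNB1 (63.1), and lowest for SGOL1 (2.61) and CDC25C (4.95). Exons of 14 members overlap a gene on the other strand in that annotation, and exons of 4 overlap one on the same strand. The strand setting of the counting is not given in the sources used here, so reads of such pairs cannot be told apart.

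Fitted over the 3 groups at once, the replicate difference was negative in all 40 members, and ECT2 alone passed the test. The median was -2.16 (log2, range -2.59 for MKI67 to -1.31 for ECT2), with standard errors of 0.22 to 1.07. By edgeR's quasi-likelihood test of replicate 2 against replicate 1 in a model of group and replicate number, ECT2 fell by 1.31 (SE 0.22, 95% interval -1.81 to -0.81, Benjamini-Hochberg adjusted p = 0.0046). Of all tested genes, 24.7% were called in this comparison (2141 higher and 2088 lower), so 1 member of 40 is below the background. FOXM1, MAD2L1, KIF11 and NUSAP1 were under 0.05 by unadjusted p only, with adjusted p of 0.083 to 0.11. The model fits 1 difference for the 3 groups, and the interval is wide where the groups differ: for KIF20A, with -1.24 in WT, -1.76 in C2 and -4.73 in C1, the estimate was -2.43 with an interval of -6.38 to 1.52 (adjusted p = 0.26). For MKI67 the estimate was -2.59 (interval -5.28 to 0.09, adjusted p = 0.14). DESeq2 called 39 of the 40 in the same model, all but NUF2 (adjusted p = 0.051), where it called 25.2% of the 15382 genes to which it gave an adjusted p (1934 higher and 1947 lower).

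Without both libraries of C1, the members of WT and C2 fell together. All 40 were called lower in replicate 2, with a median of -1.43 (range -1.91 for MKI67 to -0.96 for ECT2), where 21.9% of the tested genes were called. MKI67 fell by 1.91 (SE 0.17, adjusted p = 2.5e-27), CDK1 by 1.62 (SE 0.18, adjusted p = 6.1e-18), CCNB1 by 1.21 (SE 0.16, adjusted p = 8.7e-12) and PLK1 by 1.38 (SE 0.18, adjusted p = 1.3e-12), all by edgeR's quasi-likelihood test. This fit leaves fewer residual degrees of freedom than the 2 of the fit to all libraries. Its small p-values therefore lean on a spread shared over all tested genes, more than on the WT and C2 pairs. Leaving out only 1 of the C1 libraries, replicate 1 or replicate 2, also gave 40 of 40, where 20.8% and 20.3% of the tested genes were called. These runs are not further evidence. A C1 library left alone is fitted exactly by the term for its group and adds nothing to the replicate difference. Their medians, -1.44 without C1 replicate 1 and -1.45 without C1 replicate 2, nearly repeat the -1.43 without both. Without both C2 libraries ECT2 alone was called, with 4.74% of all genes, and without both WT libraries FOXM1 and ECT2 were called, with 27.1% of all genes. Without C2 replicate 1 no member was called by edgeR, with 3.43% of all genes called, and ECT2 stood at an adjusted p of 0.051. The C2 library left alone in that run likewise adds nothing to the replicate difference. The comparisons without a group were chosen after the values were seen.

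The size of the replicate difference was then compared between groups. Taking the clones together against WT, 0 of 40 members were called by edgeR, none of them with an unadjusted p under 0.05, with a median of -1.65 (log2) and 0.555% of the tested genes called. DESeq2 called none, with 0.153% of its genes called, and put 3 at an unadjusted p under 0.05. Without the filter on low counts edgeR called FOXM1, SGOL1 and KIF11, with 0.592% of all genes called. Set for C1 alone, a comparison chosen after the values were seen, the difference was larger in C1 than in WT and C2 for all 40 members, where 0.998% of the tested genes were called (15 higher and 156 lower). The median was -2.29, from -3.25 for KIF20A (SE 0.33, edgeR adjusted p = 1.1e-18) to -1.03 for ECT2 (SE 0.29, edgeR adjusted p = 0.044). CCNB1 lay at -2.27 (SE 0.29, edgeR adjusted p = 6.8e-12), MKI67 at -2.16 (SE 0.30, edgeR adjusted p = 3.5e-10) and TOP2A at -1.82 (SE 0.26, edgeR adjusted p = 8.9e-10). Set for C2 alone against WT and C1, 0 members were called by edgeR, none at an unadjusted p under 0.05, and 0% of all genes. These fits leave 1 residual degree of freedom, and the C1 term rests on a single pair of C1 libraries. Its small p-values therefore lean on a spread shared over all tested genes. They do not measure how far the C1 difference would vary between further C1 pairs.

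The study's own question, how the variant clones differ from the parental line, gave differences of opposite sign in the 2 replicate numbers. In replicate 1 the members were slightly higher in both clones: 32 of 40 lay above WT in C1 (median 0.17, range -0.29 to 0.72, log2) and 37 of 40 in C2 (median 0.30, range -0.08 to 0.77). In replicate 2 all 40 lay below WT in C1 (median -2.48, range -3.81 for HMMR to -1.06 for ECT2, 5.58-fold), and 36 of 40 in C2 (median -0.36, range -1.29 to 0.16). Over all tested genes, between 47.1% and 51.1% lay below WT in each of these 4 contrasts of single libraries, which have no replicates of their own. For 32 members in C1 and 33 in C2 the sign turned from higher in replicate 1 to lower in replicate 2. FOXM1, MKI67, PLK1, CDC20, PTTG1, CENPF, HMMR and ASPM were below WT in both C1 libraries. PLK1, CDC20 and PTTG1 were below WT in both C2 libraries, and TOP2A, MAD2L1, DLGAP5 and ANLN above it in both. Several of these signs rest on small differences between single libraries. In C1 replicate 1 CENPF and HMMR differed by -0.046 and -0.053 (log2). In C2 replicate 1 PLK1, CDC20 and PTTG1 differed by -0.033, -0.079 and -0.038. In C2 replicate 2 TOP2A, MAD2L1 and ANLN differed by 0.017, 0.067 and 0.028.

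**Figure D4:**
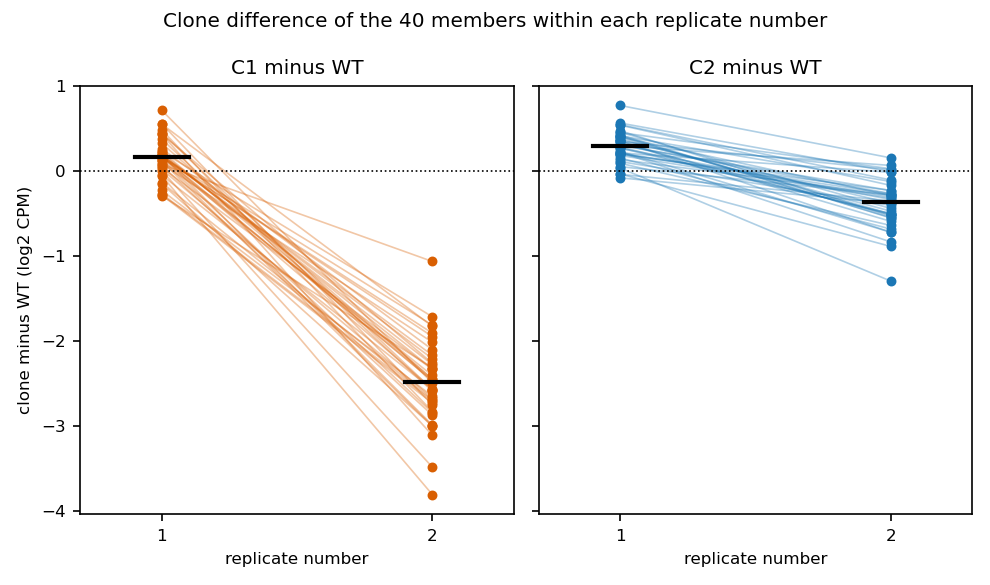
Clone minus WT (log2 CPM) for the 40 members within replicate 1 and within replicate 2, for C1 and C2, with 1 line per member. In C1 the lines run from a median of 0.17 down to -2.48, and in C2 from 0.30 down to -0.36.

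With group means alone, no member passed the test in any comparison of clones. C1 against WT called 0 of 40 members and 0.0117% of all genes, with a median of -0.29 (4 positive, 36 negative) and standard errors of 0.71 to 1.34. C2 against WT called 0 of 40 members and 0.0117% of all genes, with a median of 0.10 (30 positive, 10 negative). C2 against C1 called 0 of 40 and 0% of all genes, with a median of 0.38 (40 positive). The mean of the clones against WT called 0 of 40 and 0.198% of all genes, with a median of -0.08 (14 positive, 26 negative). In each of the 4, edgeR put 0 members at an unadjusted p under 0.05. The same held for DESeq2, which also called 0 members after adjustment, where it called 1.34%, 1.01%, 0% and 1.89% of its genes in the same order. For MKI67, C1 replicates at 179 and 10.6 CPM (mean 94.9 ± 119, SD, n = 2) stand against WT at 210 and 66.5 (mean 138 ± 101, SD, n = 2), a spread between replicates larger than the difference of the means. The C1 median was -3.13 without C1 replicate 1 and 0.60 without C1 replicate 2. The C2 median was -1.02 without C2 replicate 1, 0.71 without C2 replicate 2 and 0.72 without WT replicate 1.

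With the replicate number as a block, the signs in C1 became uniform but no member passed. All 40 were negative in C1 against WT (median -0.98, lowest adjusted p = 0.37 for ECT2 by edgeR's quasi-likelihood test), where 7.03% of all genes were called. In C2 against WT 31 were negative and 9 positive (median -0.13), with 4.54% of all genes called. All 40 were positive in C2 against C1 (median 0.87), with 0% of all genes called, and all 40 were negative in the mean of the clones against WT (median -0.57), with 9.74% of all genes called. No member was under an unadjusted p of 0.05 in any of the 4. The interval for MKI67 in C1 against WT ran from -4.49 to 1.89, and for HMMR in C2 against WT from -5.25 to 3.62, so a difference of several fold in either direction was not detectable with these libraries. ECT2 had the narrowest interval in C1, -1.07 to 0.14 around an estimate of -0.46.

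Further genes of the cycle were read from lists of the pathway. Of 55 other G2/M and mitosis genes, 27 (49.1%) were called lower in replicate 2 against replicate 1 and 0 higher (median -2.00), where 12.2% of all tested genes were called lower and 12.5% higher. The C1 difference was called larger for 36 of the 55 (65.5%), where 0.911% of all tested genes were called in that direction. SPC24, a kinetochore subunit that partners SPC25, fell by 2.46 (SE 0.20, edgeR adjusted p = 6.1e-06), with 23.1 and 4.78 CPM in WT, 25.5 and 3.21 CPM in C1, and 29.6 and 6.59 CPM in C2. KIF22, a kinesin on chromosome arms, fell by 1.54 (SE 0.15, edgeR adjusted p = 1.9e-05), with 115 and 49.0 CPM in WT, 114 and 30.5 CPM in C1, and 119 and 42.2 CPM in C2. In both genes the replicate 2 libraries did not overlap the replicate 1 libraries, and the difference was largest in C1 (-2.97 and -1.91, log2).

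At the median, the genes of G1/S and DNA replication differed from the members in how C1 stood. All 42 were called lower in replicate 2 (median -1.46), against 12.2% of all tested genes, and their median difference was 3.17-fold in WT, 2.96-fold in C2 and 2.35-fold in C1, where that of the members was 13.5-fold. In the comparison of the C1 difference with that in WT and C2, 0 of the 42 were called lower and 1 higher, MCM5 of the replicative helicase (1.2, SE 0.32, edgeR adjusted p = 0.022), against 40 of 40 members lower. TYMS, thymidylate synthase, fell by 2.78 (SE 0.16, edgeR adjusted p = 5.6e-07), with 83.9 and 13.5 CPM in WT, 62.7 and 7.08 CPM in C1, and 85.3 and 14.2 CPM in C2. GINS1, of the helicase complex, fell by 2.19 (SE 0.15, edgeR adjusted p = 2.1e-06), with 86.2 and 22.3 CPM in WT, 68.1 and 11.7 CPM in C1, and 93.9 and 22.1 CPM in C2. In TYMS and GINS1, unlike the median of the list, the difference was largest in C1 (-3.14 and -2.53, log2). The C1 difference minus that in WT and C2 was negative in 13 of the 42 genes and positive in 29. A CHR match stood in 5.71% of 35 promoters of this list and in 71.1% of 45 promoters of the other G2/M genes. Within the members, the C1 difference had a median of -3.67 in the 26 with a CHR match and -4.18 in the 8 without. Those 8 lack the exact letters in the promoter searched, and other spellings of the CHR were not searched. The split therefore cannot show which members lack the element. For CDC25C, AURKB and PTTG1 among them, further listed promoters were not searched.

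**Figure D5:**
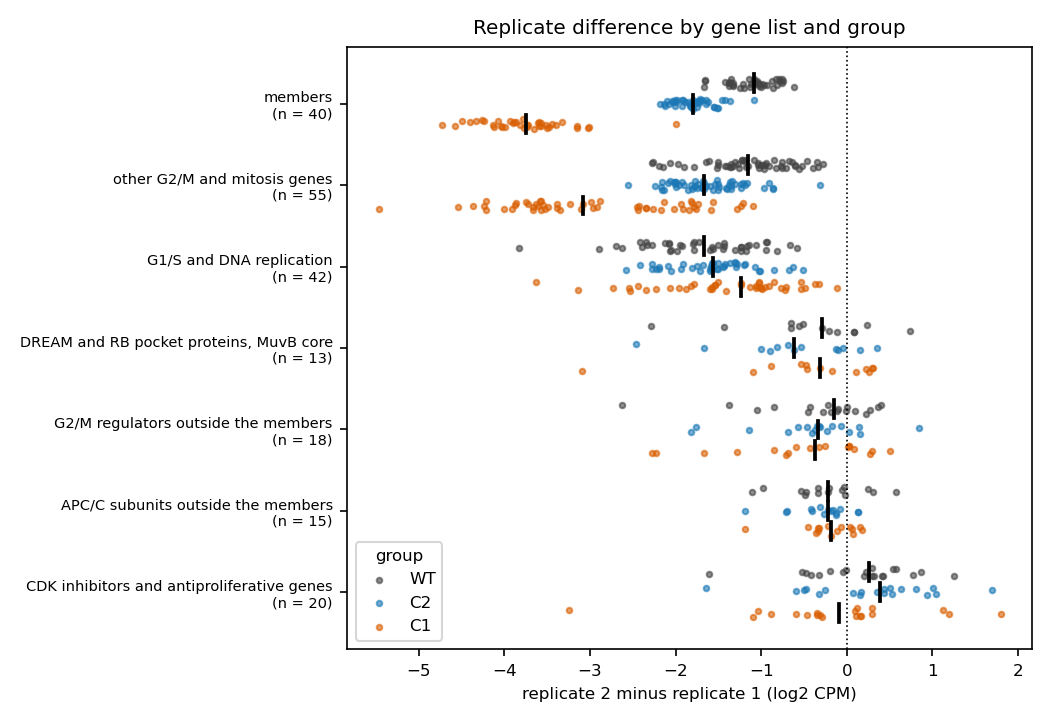
Replicate 2 minus replicate 1 (log2 CPM) within WT, C2 and C1 for the 40 members and for 6 other lists, with 1 point per gene and a black bar at each median. The C1 bar of the members lies at -3.75, left of WT (-1.08) and C2 (-1.80), while the C1 bar of the G1/S list (-1.23) lies right of WT (-1.66) and C2 (-1.56).

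Of 13 genes of DREAM, its pocket proteins and MuvB, 7 (53.8%) were called lower in replicate 2 and 0 higher, against 12.2% and 12.5% of all tested genes. MYBL2, which codes for B-MYB, fell by 2.61 (SE 0.17, edgeR adjusted p = 2.4e-06), with 97.6 and 19.9 CPM in WT, 65.0 and 7.58 CPM in C1, and 89.0 and 16.2 CPM in C2. RBL1, the pocket protein p107, fell by 1.42 (SE 0.19, edgeR adjusted p = 0.00017), and the MuvB subunits LIN9, LIN52, LIN54 and RBBP4 and the E2F partner TFDP1 by 0.55 to 0.80. The pocket protein RBL2 (p130), a part of DREAM in resting cells, did not pass (0.16, edgeR adjusted p = 0.34). Of 20 CDK inhibitors and antiproliferative genes, 4 were called higher and 2 lower, and this 30% is near the 24.7% called in either direction over all tested genes. TP53INP1, a stress-induced target of p53, rose by 1.47 (SE 0.18, edgeR adjusted p = 0.00025), with 13.3 and 24.3 CPM in WT, 20.6 and 71.9 CPM in C1, and 16.5 and 53.7 CPM in C2. KLF4, BTG1 and TOB1, which restrain proliferation, rose by 0.63, 0.44 and 0.38. CDKN2C, the inhibitor p18 of CDK4 and CDK6, fell by 2.13 (edgeR adjusted p = 0.0041) and CCNG2, an atypical cyclin of resting cells, by 0.59. The inhibitor CDKN1A (p21) did not pass (0.30, edgeR adjusted p = 0.39).

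Partners of the members in the APC/C and at G2/M entry were also read. Of 15 APC/C subunits, 3 were called lower and 0 higher: ANAPC15 (-1.13), ANAPC1 (-0.52) and CDC27 (-0.37). These 3 are 20% of the list, against 24.7% of all tested genes called in either direction and 12.2% called lower. Of 18 regulators of G2/M entry and exit, 6 (33.3%) were called lower and 0 higher, against the same 12.2% lower and 24.7% in either direction. PKMYT1, a kinase that holds CDK1 inactive, fell by 2.24 (SE 0.21, edgeR adjusted p = 1.6e-05), with 29.6 and 4.78 CPM in WT, 10.6 and 2.14 CPM in C1, and 13.3 and 3.87 CPM in C2. FBXO5, the inhibitor EMI1 of the APC/C, fell by 1.81 (SE 0.19, edgeR adjusted p = 3.3e-05), with 23.8 and 9.12 CPM in WT, 27.0 and 5.71 CPM in C1, and 32.7 and 9.22 CPM in C2. In both, C1 replicate 2 was the lowest library, and the 3 replicate 2 libraries lay below the 3 replicate 1 libraries. MASTL, the Greatwall kinase, the checkpoint gene BUB3 and the CDK1 inhibitor kinase WEE1 fell by 1.29, 0.66 and 0.58.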

How the data were processed

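RNA sequencing libraries of H358 cells were read in 3 groups of 2 from the sample titles. The authors deposited 1 table of raw counts, made with cutadapt 1.6, STAR 2.5.0a and HTSeq 0.5.3 on hg19, per the submitters' processing notes; the annotation release and strand setting are not given in the sources used here. HTSeq totals that name no gene were left out (77.6% to 78.7% of reads were in genes), and 26710 genes had no count. The tools were edgeR 4.0.16, limma 3.58.1 and R 4.3.3. Genes were filtered by filterByExpr and scaled by TMM, then tested by the robust quasi-likelihood test, with p-values adjusted by Benjamini-Hochberg over 17129 genes and called below 0.05. CPM are on the TMM scale, with a prior count of 2 for log2 values. DESeq2 1.42.0, its size factors in edgeR, no filter on low counts, the replicate number as a block, and each library left out were the alternatives.

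Replicates of a group were not copies (chi-square per gene 62.5 to 82.0). Across genes, deviations from the group means correlated between libraries of 1 number by 0.584 (WT and C1), 0.634 (WT and C2) and 0.701 (C1 and C2), so the numbers were taken as pairs; this pairing comes from the data and not from the labels. With all 6 libraries, residual degrees of freedom were 2 with the block and 3 without.

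Members and lists were chosen with earlier results of these data known. Values in every library are given for MKI67, TOP2A, CDK1, CCNB1, FOXM1, PLK1 and BUB1B, for the members with the largest and smallest replicate difference in each of 9 roles, for members called in a clone comparison without the block, and for the 5 with the lowest p in each clone against WT with the block. From other lists the 2 lowest p, and up to 6 called DREAM and CDK inhibitor genes, are named; MCM5, RBL2, CDKN1A and further called genes of the other lists were named after their values were seen, and 1 called gene of the list of G2/M regulators is not reported here. CKS1B and RBL1 stand on 2 rows, and the row with more counts was used. Exon lengths are from GENCODE 29. The first promoter listed for a gene was used. The scripts were tested on simulated data.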

Additional observations from a re-analysis of the deposited data

Results flagged for a closer look

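The replicate difference of the members was larger in C1 than in WT and C2, by edgeR's quasi-likelihood test of that difference, a comparison chosen after the values were seen. In it 40 of 40 members were called, where 0.998% of the tested genes were called. The fit leaves 1 residual degree of freedom, and its C1 term rests on a single pair of C1 libraries. Over the 40 members the median of the C1 difference minus that in WT and C2 was -2.29 (log2). By member it was -2.16 for MKI67, -1.82 for TOP2A, -2.10 for CDK1, -2.27 for CCNB1, -1.62 for FOXM1, -2.44 for PLK1 and -2.13 for BUB1B. The largest was -3.25 for KIF20A and the smallest -1.03 for ECT2. Of the G1/S list 1 of 42 was called, in the other direction, with estimates negative in 13 and positive in 29.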

How the results depend on the processing

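In the clone comparisons 0 of 40 members were called under each alternative run, the replicate block included. Counts over all genes moved: for C1 against WT from 2 to 1204 with the replicate block, 260 with DESeq2 and 296 with no filter on low counts; for C2 against WT from 2 to 777, 207 and 209; for the clones against WT from 34 to 1669, 376 and 436. Replicate 2 against replicate 1 called 1 member, where 24.7% of the tested genes (4229) were called. DESeq2 called 39 members and 25.2% of its genes. Without both C1 libraries 40 members and 21.9% of the tested genes were called. Without both WT libraries 2 members and 27.1% of the genes were called. Without both C2 libraries it was 1 member and 4.74% (794 genes). The replicate difference in clones against that in WT called 95 genes, and 20 with DESeq2. With no filter on low counts this comparison called 182 genes (0.592%) and 3 members. Leaving out a library could not be fitted there. The cause of these shifts was not tested.

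Leaving out each library in turn, medians over the members ranged from -3.13 to 0.60 in C1 against WT (0 to 1 genes called), -1.02 to 0.72 in C2 against WT (0 genes), -0.78 to 3.27 in C2 against C1, and -1.51 to 0.54 in the clones against WT (0 to 3 genes). For replicate 2 against replicate 1 they ranged from -2.76 to -1.44, with 0 to 40 members and 617 to 4849 genes called. In that replicate comparison, leaving out a library nearly repeats the fit without its whole group, because the library left alone adds nothing to the difference. Single members turned sign: in C1 against WT, FOXM1 (-2.89 to 0.13), MKI67 (-3.70 to 0.52), CDC20 (-3.39 to 0.18), ASPM (-3.58 to 0.29) and ECT2 (-1.54 to 0.45), and in C2 against WT, FOXM1 (-1.26 to 0.54), PLK1 (-1.45 to 0.35), SGOL1 (-1.28 to 0.54), NDC80 (-1.34 to 0.64) and HMMR (-1.71 to 0.34). The negative end came without replicate 1 of the clone. The 29 counts of SGOL1 in C1 replicate 2 limit its precision.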
